A study of Mus musculus with 12 samples.

Results

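Collagen genes were followed through the gastrocnemius, a calf muscle, of young and old mice with and without PGC-1alpha in muscle. The set was every gene whose symbol in the array's annotation reads as a collagen chain (Col, a type number, a and a chain number), on probe sets that name 1 gene. It held 42 of the 18194 genes measured, of which 11 encode fibrillar chains, 8 basement membrane chains and 23 other chains. Each gene was represented by the probe set with the highest mean over the 12 arrays, out of 82 collagen probe sets in all. The groups were young wild-type mice of 10 weeks, young knock-out mice of 10 weeks, old wild-type mice of 24 months and old knock-out mice of 24 months, with 3 arrays each. Knock-out stands for a loss of PGC-1alpha restricted to muscle by Cre driven from the myogenin promoter, and the design text gives 1 background, C57Bl/6N/6J/129, for the mice of every group. Myogenin is a transcription factor gene of differentiating muscle cells. The labels do not say whether the wild-type mice carried the floxed allele or Cre, nor whether the arrays of a group came from separate animals. The p-values therefore measure the spread between these arrays, which may be partly technical.

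A collagen molecule is a triple helix of alpha chains that is hydroxylated and assembled in the endoplasmic reticulum, secreted, trimmed by proteases and cross-linked outside the cell. Fibrillar collagens, led by types I and III in muscle, form the cable-like fibrils of the tendon and of the connective tissue around fibres and bundles. Type IV collagen forms the network of the basement membrane that wraps each muscle fibre and capillary, type VI forms beaded filaments next to it, and the FACIT collagens sit on the surface of fibrils. In muscle most collagen RNA comes from fibroblasts and related connective tissue cells rather than from the fibres.

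The stretches just upstream of 4 collagen genes that passed the test below are shown because 3 of them fell with age and 1 rose. Each stretch holds the 250 bases before a listed start of transcription, 5′ to 3′ on the gene's strand, from RefSeq (GRCm38.p6). Capitals mark matches, on either strand, to a CCAAT box (CCAAT or ATTGG) or a GC box (GGGCGG or CCGCCC), short motifs that are common in promoters.
Col1a2 chr6:4505368-4505617 (+ strand): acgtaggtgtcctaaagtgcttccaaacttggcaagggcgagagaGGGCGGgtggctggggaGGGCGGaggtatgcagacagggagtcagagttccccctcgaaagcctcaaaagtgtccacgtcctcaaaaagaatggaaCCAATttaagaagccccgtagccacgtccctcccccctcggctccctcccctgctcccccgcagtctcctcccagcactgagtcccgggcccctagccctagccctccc
Col11a1 chr3:114030290-114030539 (+ strand): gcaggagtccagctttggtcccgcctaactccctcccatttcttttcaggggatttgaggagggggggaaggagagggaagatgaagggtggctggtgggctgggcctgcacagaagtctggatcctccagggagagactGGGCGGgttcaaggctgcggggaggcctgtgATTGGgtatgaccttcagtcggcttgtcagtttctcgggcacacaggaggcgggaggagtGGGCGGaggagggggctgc
Col8a2 chr4:126286544-126286793 (+ strand): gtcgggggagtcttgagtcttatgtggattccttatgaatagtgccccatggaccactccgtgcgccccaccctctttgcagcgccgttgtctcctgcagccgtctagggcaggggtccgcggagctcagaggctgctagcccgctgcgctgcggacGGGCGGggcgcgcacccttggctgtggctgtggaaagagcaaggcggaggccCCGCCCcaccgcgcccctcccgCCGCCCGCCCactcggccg
Col7a1 chr9:108953336-108953585 (+ strand): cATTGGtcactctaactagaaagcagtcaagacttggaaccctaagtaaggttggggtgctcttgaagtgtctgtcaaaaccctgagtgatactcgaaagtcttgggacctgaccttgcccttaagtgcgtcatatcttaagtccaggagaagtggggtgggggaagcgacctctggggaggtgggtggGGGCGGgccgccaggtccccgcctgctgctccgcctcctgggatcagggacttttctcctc
The Col1a2 stretch held 1 CCAAT box and 2 GC boxes, and that of Col11a1 held 1 and 2 as well. The RefSeq bounds of Col11a1 begin at base 114030479, so the end of its stretch, with its last GC box, lies inside them. The Col8a2 stretch held 4 GC boxes, of which a pair overlap, and no CCAAT box. The stretch of Col7a1, the gene that rose, held 1 of each. Among the 36 windows of 33 collagen genes in the RefSeq table, 13 (36.1%) held a CCAAT box and 21 (58.3%) a GC box. Among all 32851 windows the shares were 33.8% and 32.7%. TATAAA or its reverse complement was in 5 collagen windows (13.9%) and in 12.4% of all windows. A match is a stretch of letters and says nothing of a factor bound there.

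The values were log2 signals with array medians of 6.19 to 6.25, and replicates had Pearson correlations of 0.989 to 0.996 over all probe sets. Ppargc1a, the gene of PGC-1alpha, gave no lower signal in knock-out mice: its 5 probe sets read 0.42 to 0.58 higher in young and 0.29 to 0.49 higher in old muscle, and none passed the test (smallest adjusted p = 0.398 and 0.265). Which exons were deleted is not given in the sources used here, so these probe sets do not check the genotype, and knock-out refers to the label. Old knock-out array 1 stood apart from its replicates, at 42.6 on principal component 1, which holds 37.8% of the variance, where its replicates were at 19.3 and 15.7. Control probe sets differed with age, untested: 18S ribosomal RNA averaged log2 13.8 (wild-type) and 13.7 (knock-out) in the young and 12.1 and 12.4 in the old groups, and for Actb the 5′ probe set lay below the 3′ one by a mean difference of -0.29, -0.20, -0.13 and -0.01. The muscle label held: 11 of 11 muscle fibre markers were measured, with a mean of log2 15.3 to 15.4 on each array. Most of them lie close to the highest value on the arrays, log2 15.95, where a signal can hardly move, so they show that the tissue is muscle and do not show whether fibre RNA was steady.

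Of the 42 collagen genes, 27 had a mean at or above log2 6.22, the median of all values on the arrays, which served as a signal floor. They were 7 fibrillar, 5 basement membrane and 15 other genes. The remaining 15 were dim, and small differences among them lie near background. Where the lower group mean of a comparison lies under the floor, a fold is given as "at least", since background shrinks it, and where both lie under it no fold is given. Values after ± are standard errors from limma, and a gene passed when its p, adjusted by Benjamini and Hochberg over the 18194 genes, was under 0.05.

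Old wild-type muscle had less RNA of Col1a1, Col11a1, Col4a1, Col4a4, Col8a2, Col12a1 and Col22a1 than young wild-type muscle, and more of Col7a1. Of the 42 collagen genes, 7 fell and 1 rose (16.7% and 2.38%). Over all genes the shares were 1.97% down and 1.65% up, 3.62% in all. The median difference of the 42 was -0.30, beside 0.00 over all genes. In 13 of the 42 every old wild-type array lay below every young one (31.0%, against 13.5% of all genes), and in 2 every old array lay above (4.76% against 12.8%), while 26.2% of all genes were apart in either direction. At an unadjusted p under 0.05 there were 13 of the 42 collagens (31.0%) and 16.6% of all genes. Leaving out 1 array at a time gave 2 to 9 calls: 3, 4 and 3 without young wild-type arrays 1, 2 and 3, and 4, 2 and 4 without old wild-type arrays 1, 2 and 3. Trended and robust variances gave 5.

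Old knock-out muscle had less RNA of both type I chains, of both type XI chains and of Col2a1, Col4a1, Col4a2, Col8a2, Col9a1, Col12a1, Col19a1 and Col22a1 than young knock-out muscle, and more of Col7a1. Thus 12 of the 42 fell and 1 rose (28.6% and 2.38%). Here 5.41% of all genes fell and 4.85% rose, 10.3% in all. The median of the 42 was -0.48, beside -0.00 over all genes, and groups were apart and lower in 19 (45.2%, against 14.9%) and apart and higher in 3 (7.14%, against 13.8%), while 28.7% of all genes were apart in either direction. At an unadjusted p under 0.05 there were 22 of the 42 collagens and 24.9% of all genes. Without old knock-out array 2 there were 8 calls, in a fit of the knock-out groups alone 7, and without young knock-out array 3 and old knock-out array 1 together 8. The knock-out and wild-type age comparisons share no array but share 1 estimate of the spread. They called 7 genes in common, each in 1 direction: Col1a1, Col11a1, Col12a1, Col22a1, Col4a1 and Col8a2 fell and Col7a1 rose. Col4a4 passed in wild-type muscle alone, and Col1a2, Col2a1, Col11a2, Col4a2, Col9a1 and Col19a1 in knock-out mice alone. Passing in 1 genotype and missing in the other is no difference between genotypes, which is tested further on.

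The most negative measured age differences of the set were those of the fibrillar chains Col1a1, Col1a2 and Col11a1, in both genotypes. Col1a1, the alpha 1 chain of type I collagen and the main chain of the muscle's fibrils, read log2 11.70, 11.04 and 11.19 in young and 7.27, 8.43 and 9.49 in old wild-type muscle, with 11.34, 11.20 and 12.58 in young and 6.34, 8.07 and 8.44 in old knock-out muscle. All 6 old arrays lay below all 6 young ones, and the old groups had SDs of 1.11 and 1.12 beside 0.342 and 0.761 in the young wild-type and knock-out groups. The fall was 7.54-fold in wild-type (-2.91 ± 0.59, adjusted p = 0.0214) and 17.02-fold in knock-out mice (-4.09 ± 0.59, adjusted p = 0.00194). Without young wild-type array 1 the wild-type difference was -2.72 with an adjusted p of 0.0715, and leaving out young array 2 or 3 or old array 1 or 2 gave 0.0559 to 0.0726. Its other probe set gave -2.07 and -3.28.

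Col1a2, the partner chain of type I collagen, read 13.66, 13.34 and 13.27 in young and 10.88, 11.70 and 11.80 in old wild-type muscle, with 13.48, 13.39 and 14.64 in young and 9.42, 11.29 and 11.93 in old knock-out muscle. Every old array was again below every young array. It fell 7.78-fold in knock-out mice (-2.96 ± 0.53, adjusted p = 0.00530). In wild-type muscle the difference of -1.96 ± 0.53 did not pass (adjusted p = 0.0658). It did pass without old knock-out array 1 (0.00789) or 3 (0.0373), and in a fit of the wild-type groups alone (0.00784). A second bright probe set gave -2.90 and -4.11, and a dim one of mean 4.78 gave -0.26 and -0.66.

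Col3a1, the chain of type III collagen, which forms thin fibrils with type I, read 13.68, 12.52 and 12.48 in young and 11.06, 12.65 and 12.09 in old wild-type muscle, with 12.86, 12.78 and 13.95 in young and 9.72, 12.32 and 12.80 in old knock-out muscle. Its groups overlapped: old wild-type array 2 and old knock-out array 3 lay within the range of the young arrays, while old knock-out array 1 was the lowest of all. The differences of -0.96 ± 0.69 in wild-type and -1.58 ± 0.69 in knock-out mice did not pass (adjusted p = 0.549 and 0.176). Col3a1 had the widest spread of the collagen genes, with a pooled SD within groups of 1.04.

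Type V chains start fibrils and limit their width, and the groups of Col5a1 and Col5a2 overlapped as well. Col5a1 read 9.40, 8.74 and 8.68 in young and 8.20, 8.80 and 8.33 in old wild-type muscle, with 8.76, 8.78 and 9.79 in young and 7.11, 8.83 and 9.13 in old knock-out muscle. Col5a2 read 10.19, 9.39 and 9.48 in young and 8.55, 9.64 and 8.63 in old wild-type muscle, with 9.70, 9.62 and 10.68 in young and 8.15, 9.51 and 9.97 in old knock-out muscle. Neither passed: the age differences were -0.49 and -0.75 for Col5a1 and -0.75 and -0.79 for Col5a2 in wild-type and knock-out muscle (adjusted p from 0.311 to 0.663). Col5a3 differed by -0.56 and -0.56 and did not pass either. In wild-type muscle its old arrays all lay below its young ones, and in knock-out muscle they overlapped.

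Type XI chains, minor partners inside fibrils and best known from cartilage, were dimmer. Col11a1 read 7.21, 6.72 and 6.90 in young and 4.71, 4.96 and 5.16 in old wild-type muscle, with 6.73, 7.10 and 8.41 in young and 4.72, 4.63 and 4.82 in old knock-out muscle. Its young arrays were all above the floor and its old arrays all below it, with no overlap. The fall was at least 3.997-fold in wild-type (-2.00 ± 0.32, adjusted p = 0.00614) and at least 6.45-fold in knock-out mice (-2.69 ± 0.32, adjusted p = 0.000667). Its other probe set gave -2.00 and -2.62. Col11a2 read 6.23, 6.41 and 6.42 in young and 6.09, 5.91 and 6.03 in old wild-type muscle, with 6.35, 6.45 and 7.21 in young and 5.72, 5.84 and 5.83 in old knock-out muscle. All old arrays lay below all young ones, and the fall passed in knock-out mice (at least 1.83-fold, -0.87 ± 0.18, adjusted p = 0.00972) but not in wild-type muscle (-0.35 ± 0.18, adjusted p = 0.359).

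Col2a1, the chain of cartilage type II collagen, read 5.67, 5.82 and 5.89 in young and 5.52, 5.71 and 5.73 in old wild-type muscle, with 5.58, 5.89 and 5.87 in young and 5.31, 4.9955 and 5.55 in old knock-out muscle, all under the floor. It passed in knock-out mice (-0.50 ± 0.14, adjusted p = 0.0404), where the signal lies in the background of the arrays. Without young knock-out array 2 or 3 or old knock-out array 1 or 2 the adjusted p was 0.0811 to 0.137, and without young or old wild-type array 2 or 3 it was 0.0535 to 0.0562. Of 7 cartilage and bone markers measured of 9 listed, none passed with age in limma in either genotype, also at an unadjusted p under 0.05. Most of these markers lay under the floor, with list means of log2 5.19 to 5.48 per array, so they could hardly show a fall. The fibrillar genes left, Col24a1 and Col27a1, differed by -0.19 to 0.04 with age and did not pass.

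**Figure D1:**
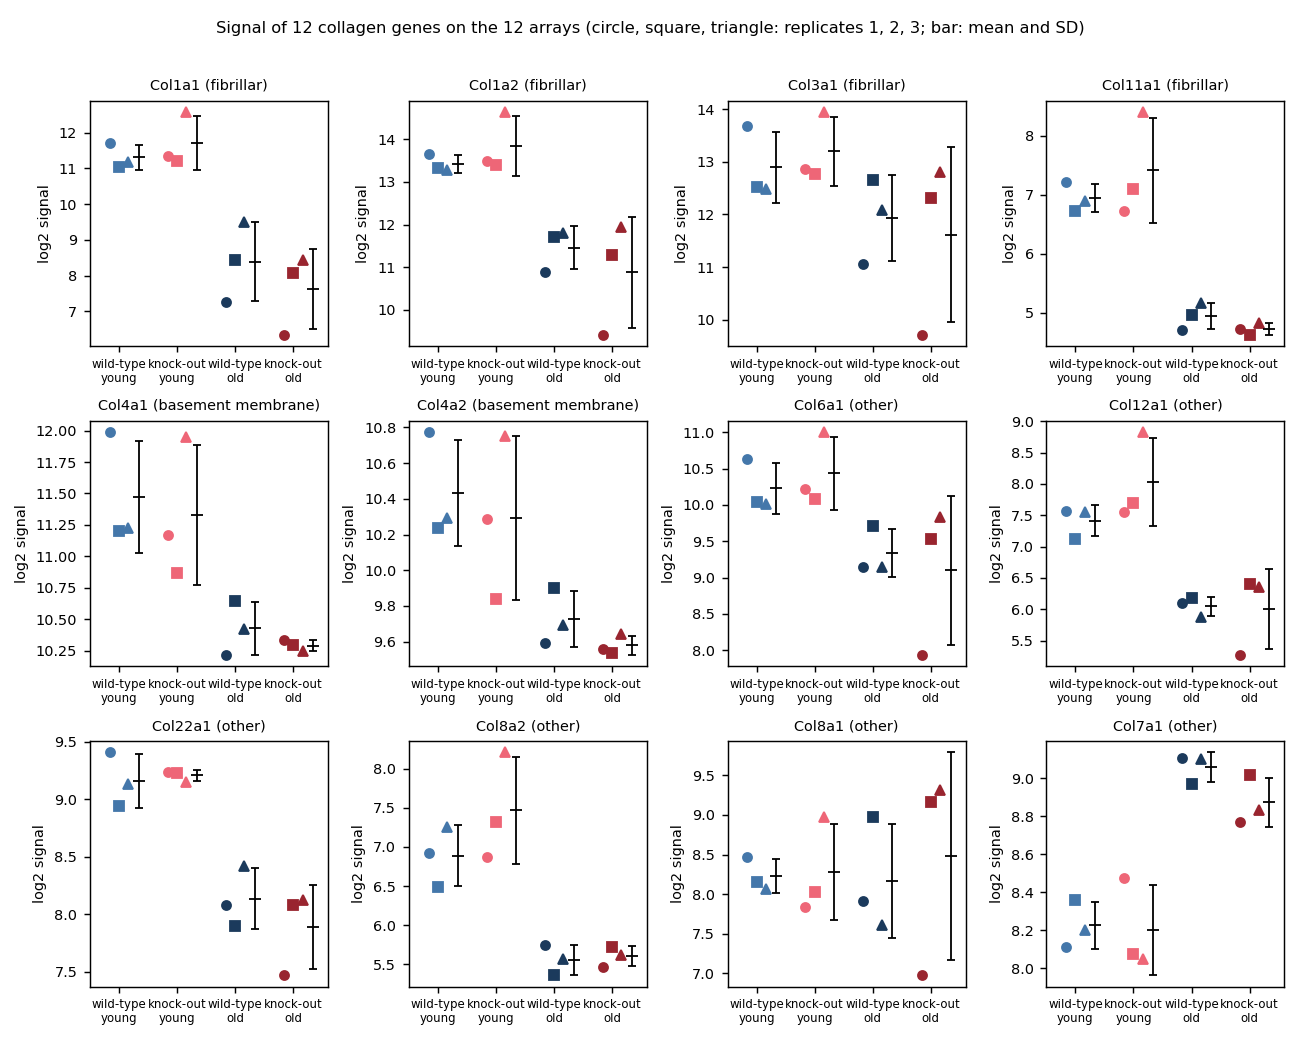
Log2 signal (vertical axis) of 12 collagen genes in the 4 groups, 1 point per array, with the mean and SD of each group as a bar. All old arrays of Col1a1, Col1a2, Col11a1, Col4a1 and Col22a1 lie below all young arrays, those of Col7a1 lie above them, and old knock-out array 1 is the lowest point of Col1a1, Col1a2 and Col3a1.

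Of the 8 basement membrane collagens, 2 fell in each genotype (25%) and 0 rose. Over all genes 1.97% fell in wild-type and 5.41% in knock-out mice, and 1.65% and 4.85% rose. Col4a1, a chain of the common type IV network, read 11.99, 11.20 and 11.23 in young and 10.22, 10.64 and 10.43 in old wild-type muscle, with 11.17, 10.87 and 11.95 in young and 10.33, 10.29 and 10.25 in old knock-out muscle. Old arrays lay between 10.22 and 10.64, below the lowest young array at 10.87. The fall was 2.06-fold in wild-type (-1.04 ± 0.26, adjusted p = 0.0441) and 2.06-fold in knock-out mice (-1.04 ± 0.26, adjusted p = 0.0249). The wild-type fall missed the threshold without any 1 of the 6 wild-type arrays (adjusted p from 0.0684 to 0.138) or without young knock-out array 1 or old knock-out array 2 or 3 (0.0564 to 0.0607), and the knock-out fall without young knock-out array 3 (-0.73, 0.0818) or without any 1 of the old knock-out arrays (0.0507 to 0.0581). Its other probe set gave -0.73 and -0.51.

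Col4a2, the partner chain of Col4a1 and its neighbour in the genome, read 10.77, 10.23 and 10.29 in young and 9.59, 9.90 and 9.69 in old wild-type muscle, with 10.29, 9.84 and 10.75 in young and 9.56, 9.54 and 9.64 in old knock-out muscle. Within each genotype the groups were apart, though young knock-out array 2, at 9.84, lay below old wild-type array 2, at 9.90. The fall passed in knock-out mice (1.64-fold, -0.71 ± 0.20, adjusted p = 0.0417) and had the size -0.71 ± 0.20 in wild-type muscle, where it did not pass (adjusted p = 0.0796). In knock-out muscle it no longer passed without young knock-out array 3 (-0.48, adjusted p = 0.148), without young knock-out array 1 or any old knock-out array (0.0635 to 0.0984), or without young wild-type array 3 or any old wild-type array (0.0521 to 0.0572).

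Col4a4, a chain of the type IV network found in few tissues, such as the kidney, read 6.79, 6.47 and 6.29 in young and 5.99, 5.83 and 5.78 in old wild-type muscle, with 6.16, 6.20 and 6.73 in young and 5.93, 5.89 and 5.86 in old knock-out muscle. Old arrays stayed under the floor. It fell at least 1.57-fold in wild-type muscle (-0.65 ± 0.15, adjusted p = 0.0384), and the difference of -0.47 ± 0.15 in knock-out mice did not pass (adjusted p = 0.0755). The wild-type fall no longer passed without any 1 of the 6 wild-type arrays (adjusted p from 0.0552 to 0.132) or without old knock-out array 2 (0.0505), and its other probe sets gave -0.61 and -0.16.

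The remaining type IV chains, Col4a3, Col4a5 and Col4a6, did not pass, with wild-type differences of -0.04, -0.42 and 0.21 and knock-out differences of -0.34, -0.62 and 0.11.

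The multiplexins Col15a1 and Col18a1 bridge basement membranes and the matrix around them. Col15a1 read 8.42, 7.84 and 7.79 in young and 7.35, 7.63 and 7.01 in old wild-type muscle, with 7.72, 7.66 and 8.14 in young and 6.99, 7.20 and 7.504 in old knock-out muscle. Old arrays lay below young arrays in both genotypes, yet the differences of -0.69 ± 0.21 and -0.61 ± 0.21 did not pass (adjusted p = 0.0970 and 0.0857). Col18a1, the precursor of endostatin, read 7.32, 7.09 and 7.24 in young and 7.13, 7.13 and 7.18 in old wild-type muscle, with 7.41, 7.21 and 7.32 in young and 6.95, 7.01 and 7.18 in old knock-out muscle. Its differences were -0.07 ± 0.09 and -0.27 ± 0.09 (adjusted p = 0.793 and 0.0902). In knock-out muscle its old arrays all lay below its young ones, and in wild-type muscle they overlapped.

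Type VI collagen, whose main chains are mutated in Bethlem and Ullrich muscle disease, showed the same layout of arrays as type III. Col6a1 read 10.63, 10.04 and 10.01 in young and 9.15, 9.72 and 9.15 in old wild-type muscle, with 10.22, 10.08 and 11.004 in young and 7.93, 9.53 and 9.83 in old knock-out muscle. Col6a2 read 10.97, 10.33 and 10.34 in young and 9.68, 10.35 and 9.72 in old wild-type muscle, with 10.42, 10.34 and 11.37 in young and 8.02, 9.92 and 10.43 in old knock-out muscle. Col6a3 read 11.14, 10.19 and 10.33 in young and 9.77, 10.58 and 9.82 in old wild-type muscle, with 10.56, 10.37 and 11.49 in young and 8.57, 10.32 and 10.77 in old knock-out muscle. In all of these, young knock-out array 3 was the highest and old knock-out array 1 the lowest of the 12, and the old groups overlapped the young ones except for Col6a1. None of them passed: the wild-type differences were -0.89, -0.63 and -0.50, and the knock-out differences -1.33, -1.25 and -0.92 (smallest adjusted p = 0.0609). Col6a4 and Col6a5 were dim, with differences between -0.10 and 0.12.

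Among the FACIT collagens, 2 of 9 fell in wild-type and 4 of 9 in knock-out mice (22.2% and 44.4%). Over all genes the shares were 1.97% and 5.41%. Col22a1, a chain of the junction between muscle and tendon, read 9.41, 8.94 and 9.13 in young and 8.08, 7.90 and 8.42 in old wild-type muscle, with 9.24, 9.23 and 9.15 in young and 7.47, 8.08 and 8.12 in old knock-out muscle. The highest old array, at 8.42, lay below the lowest young array, at 8.94. The fall was 2.04-fold in wild-type (-1.03 ± 0.18, adjusted p = 0.0107) and 2.49-fold in knock-out mice (-1.32 ± 0.18, adjusted p = 0.00140). Without old wild-type array 2 the wild-type adjusted p was 0.0545. Its other probe sets gave -0.85 and -0.06 in wild-type and -1.34 and -0.23 in knock-out mice.

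Col12a1, which decorates type I fibrils in tendon and muscle connective tissue, read 7.57, 7.12 and 7.55 in young and 6.10, 6.17 and 5.87 in old wild-type muscle, with 7.56, 7.70 and 8.83 in young and 5.27, 6.40 and 6.36 in old knock-out muscle. Old arrays were all below young arrays, and young knock-out array 3 was the highest by over a log2 unit. The fall was at least 2.58-fold in wild-type (-1.37 ± 0.34, adjusted p = 0.0437) and at least 4.06-fold in knock-out mice (-2.02 ± 0.34, adjusted p = 0.00373). Leaving out any 1 of the wild-type arrays ended the wild-type call (adjusted p from 0.0760 to 0.156), as did leaving out young knock-out array 2 (0.0573). Its probe sets disagreed: the next brightest, of mean 6.72, gave -0.07 and -0.17, and those of means 4.48 and 4.31 gave 0.14 and 0.01 in wild-type and 0.34 and 0.18 in knock-out mice.

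Col9a1, a chain of the FACIT of cartilage fibrils, read 7.68, 8.12 and 8.19 in young and 7.74, 6.95 and 7.24 in old wild-type muscle, with 7.99, 8.21 and 7.60 in young and 6.59, 7.10 and 7.42 in old knock-out muscle. In knock-out muscle all old arrays lay below all young ones (1.86-fold lower, -0.90 ± 0.25, adjusted p = 0.0384), while in wild-type muscle the groups overlapped (-0.68 ± 0.25, adjusted p = 0.168). The knock-out call was lost without array 1 or 2 of either knock-out group (adjusted p from 0.0688 to 0.140) and without young wild-type array 2 or 3 or old wild-type array 3 (0.0511 to 0.0525). Its other probe set gave -0.16 and -0.35.

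Col19a1, a chain of a rare basement membrane zone collagen and the genome neighbour of Col9a1, read 7.11, 7.04 and 7.07 in young and 7.10, 7.03 and 7.12 in old wild-type muscle, with 7.10, 7.25 and 7.60 in young and 7.05, 6.89 and 6.75 in old knock-out muscle. It passed in knock-out mice by a narrow margin (1.34-fold lower, -0.42 ± 0.12, adjusted p = 0.0435), and differed by 0.01 ± 0.12 in wild-type muscle (adjusted p = 0.980). Without young knock-out array 3 the knock-out difference was -0.28 and the adjusted p 0.152. Leaving out any other array except young knock-out array 1 or old knock-out array 1 also ended the call (0.0549 to 0.114). Its other probe sets gave -0.75 and 0.09 there. The FACIT genes left, Col9a2, Col9a3, Col14a1, Col16a1 and Col20a1, did not pass. The largest difference among them was that of Col14a1, at -0.47 in wild-type and -0.88 in knock-out mice.

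Col7a1, which forms the anchoring fibrils beneath epithelia, was the 1 collagen gene that rose. It read 8.12, 8.36 and 8.20 in young and 9.11, 8.97 and 9.10 in old wild-type muscle, with 8.47, 8.08 and 8.05 in young and 8.77, 9.02 and 8.83 in old knock-out muscle. Each old array was above each young array, and the spread within groups was small. The rise was 1.78-fold in wild-type (0.83 ± 0.12, adjusted p = 0.00384) and 1.59-fold in knock-out mice (0.67 ± 0.12, adjusted p = 0.00561), on the gene's 1 probe set. It passed in all 24 settings of the analysis in both genotypes.

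Col8a2, a short-chain network collagen, read 6.92, 6.49 and 7.26 in young and 5.74, 5.36 and 5.57 in old wild-type muscle, with 6.88, 7.32 and 8.21 in young and 5.47, 5.72 and 5.62 in old knock-out muscle. Old arrays were all under the floor and young arrays all above it. The fall was at least 2.53-fold in wild-type (-1.34 ± 0.28, adjusted p = 0.0229) and at least 3.65-fold in knock-out mice (-1.87 ± 0.28, adjusted p = 0.00210). The wild-type call was lost without young wild-type array 1 or 3 or without old wild-type array 2 or 3 (adjusted p from 0.0668 to 0.106). Its partner chain Col8a1 differed by -0.06 ± 0.54 and 0.20 ± 0.54 and did not pass. Col10a1 and Col26a1 differed by 0.02 to 0.16, and the 4 transmembrane collagens Col13a1, Col17a1, Col23a1 and Col25a1 had 0 calls.

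**Figure D2:**
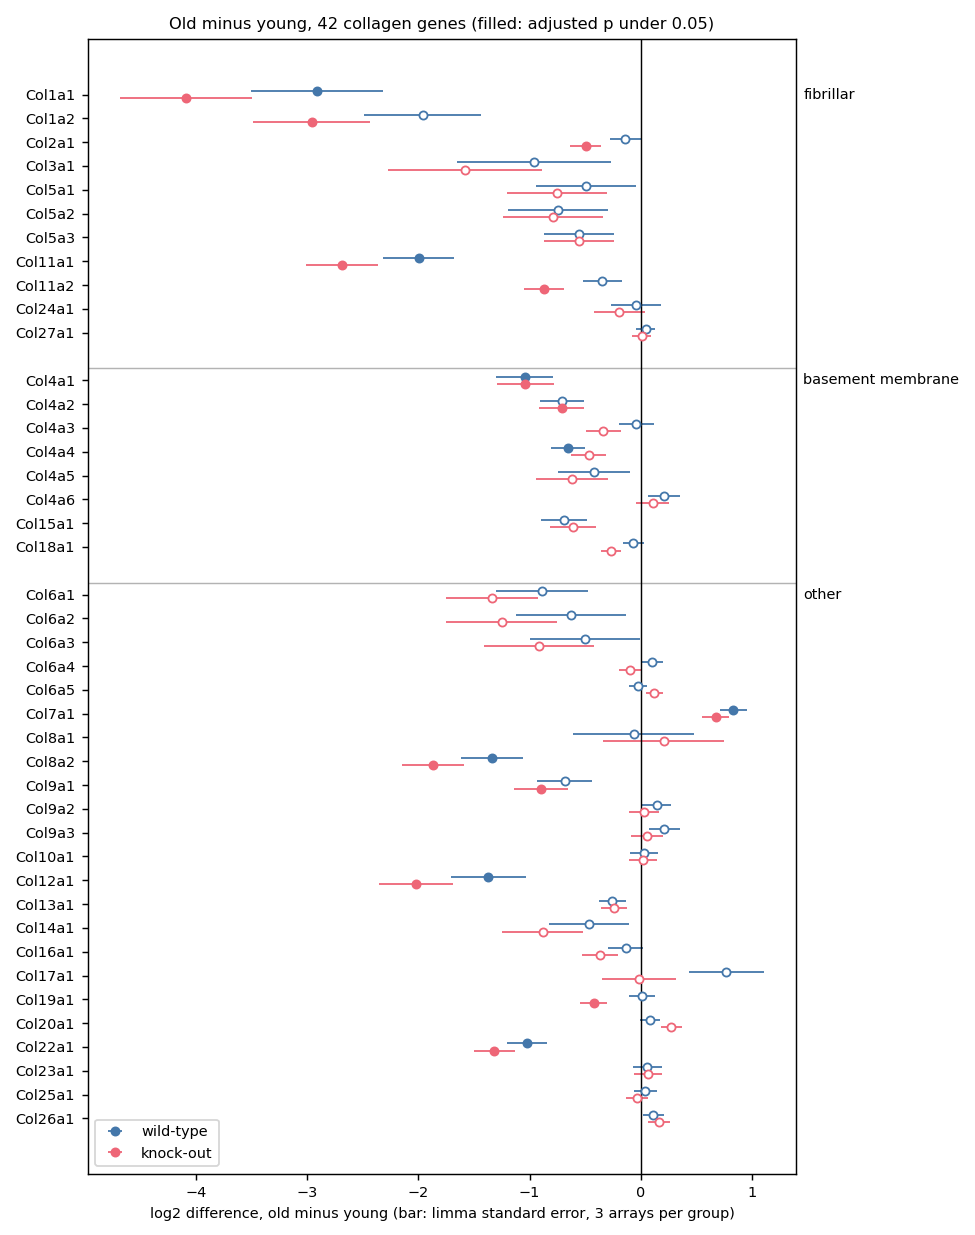
Old minus young log2 difference (horizontal axis) of each of the 42 collagen genes in wild-type and in knock-out mice. Bars show the standard error from limma and are narrower than a 95% interval. The fibrillar genes Col1a1, Col1a2 and Col11a1 lie farthest to the left, and Col7a1 lies to the right of 0 in both genotypes. The bars are widest for Col1a1 and Col3a1.

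The classes were then set side by side. Over all genes 1.97% were called down and 1.65% up in wild-type, and 5.41% and 4.85% in knock-out mice. Differences below 0 made up 49.5% of all genes in wild-type and 51% in knock-out mice. The median difference of the fibrillar genes was -0.56 in wild-type and -0.79 in knock-out mice, with 2 and 5 of 11 called and 10 of 11 below 0 in both. The basement membrane genes had medians of -0.54 in both genotypes, with 2 of 8 called and 7 of 8 below 0 in both. The other collagens had medians of -0.02 and -0.10, with 3 of 23 down and 1 up in wild-type and 5 down and 1 up in knock-out mice. Among genes at or above the floor its medians were -0.47 and -0.88, beside -0.75 and -0.79 for fibrillar and -0.69 and -0.62 for basement membrane genes, and beside -0.01 in both genotypes for all genes at or above the floor. These class medians are descriptions, and no difference between classes was tested.

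**Figure D3:**
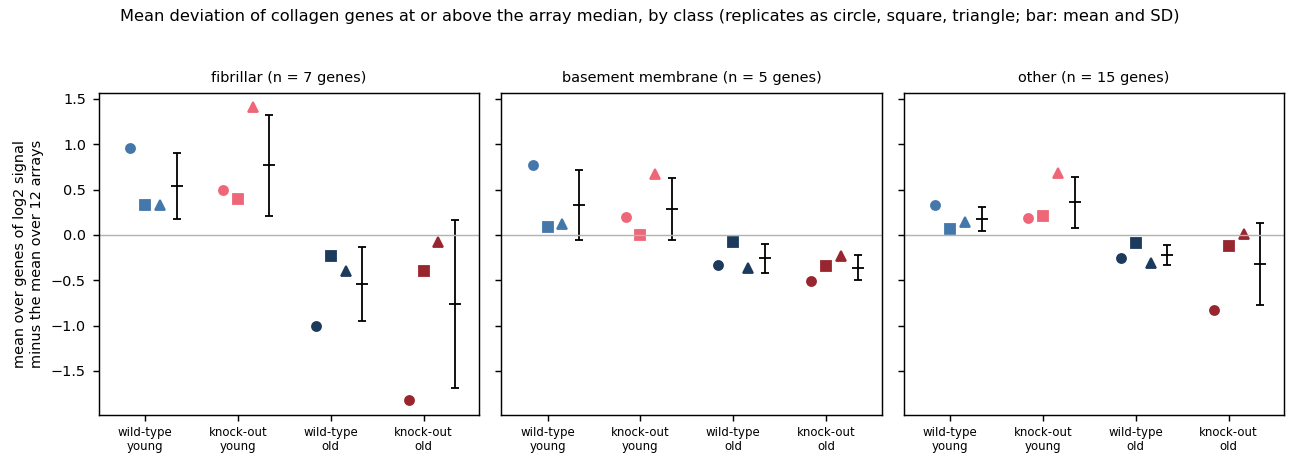
Mean over the genes of a class, at or above the floor, of log2 signal minus the mean over 12 arrays (vertical axis), for each array of the 4 groups in the fibrillar, basement membrane and other classes, with the mean and SD of each group. Young arrays lie at or above 0 in all classes, and old knock-out array 1 is the lowest, at -1.82 for fibrillar, -0.50 for basement membrane and -0.83 for other collagens.

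Replicates of a group were scattered in many collagen genes. The pooled SD within groups had a median of 0.408 over the 27 brighter collagens, against 0.142 over all genes at or above the floor, and was 0.672 for fibrillar, 0.296 for basement membrane and 0.358 for other collagens. Col3a1, Col1a1 and Col8a1 were the most scattered (1.04, 0.892 and 0.813), and Col27a1 and Col18a1 among the least (0.0861 and 0.0984). The scatter was shared between collagen genes. Young knock-out array 3 was the highest of all 12 in 16 of the 42 genes and in 8 of 11 fibrillar ones, and old knock-out array 1 was the lowest in 19 of 42 and in 8 of 11 fibrillar ones. Young wild-type array 1 was the highest in 6 of 8 basement membrane genes. How often each array was highest or lowest over all genes was not counted. On principal component 1 over all genes, old knock-out array 1 had the highest value (42.6) and young knock-out array 3 the lowest (-22.5). These extremes are therefore not particular to collagens. The mean score of the brighter fibrillar genes was 0.96, 0.33 and 0.33 on young and -1.003, -0.23 and -0.40 on old wild-type arrays, with 0.50, 0.40 and 1.41 on young and -1.82, -0.40 and -0.07 on old knock-out arrays. Thus in each group 1 array lay apart from the other two, array 1 of both wild-type groups, array 3 of the young and array 1 of the old knock-out group, above the other two in the young and below them in the old groups.

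Knock-out and wild-type muscle were then compared within each age. In young muscle limma called 0 of the 42 collagen genes, and 0 at an unadjusted p under 0.05 (against 11.3% of all genes), while 0.192% of all genes passed, 0.0385% up and 0.154% down (smallest collagen adjusted p = 0.462). Arrays were apart in 2 collagen genes, Col9a2 and Col25a1, both lower in knock-out mice (4.76%, against 20.8% of all genes in either direction). The largest differences were those of Col12a1, Col14a1 and Col8a2, at 0.61, 0.61 and 0.58. For Col1a1 the difference was 0.40 with a 95% interval of -0.89 to 1.69. The fibrillar median was 0.30, and -0.06 without young knock-out array 3. The basement membrane median was -0.11, and 0.06 without young wild-type array 1.

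In old muscle 0 collagen genes passed in limma as well, while 1.32% of all genes did, 0.473% up and 0.852% down (smallest collagen adjusted p = 0.176). An unadjusted p under 0.05 was found in 4 of the 42 collagens, against 19.3% of all genes. Col6a5 was apart and higher in knock-out mice, and Col11a2 and Col27a1 apart and lower (7.14% in either direction, against 23.8%). Col1a1 differed by -0.78 (95% interval -2.07 to 0.52) and Col4a1 by -0.14 (-0.69 to 0.42). The medians were -0.22 for fibrillar, -0.12 for basement membrane and -0.12 for other collagens.

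**Figure D4:**
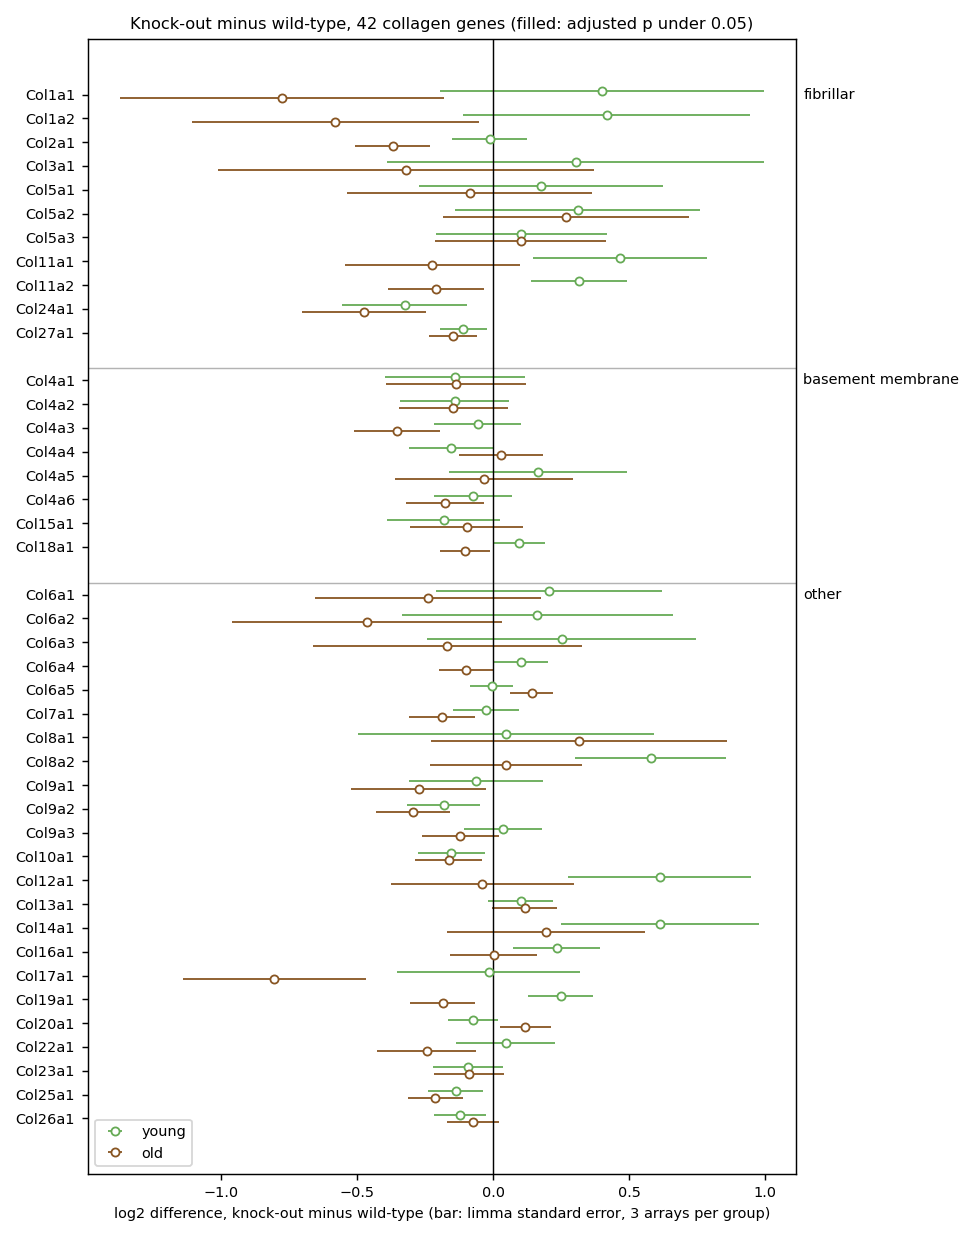
Knock-out minus wild-type log2 difference (horizontal axis) of each of the 42 collagen genes in young and in old muscle. Bars show the standard error from limma. None passed the test at either age, and the intervals of Col1a1 run from -0.89 to 1.69 in young and from -2.07 to 0.52 in old muscle.

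Whether the age difference depended on genotype was tested with the interaction, the age difference in knock-out minus that in wild-type muscle. Limma called 0 of 42 collagen genes and 0 of all genes (0%), and 1 collagen gene and 5.45% of all genes had an unadjusted p under 0.05. The smallest collagen adjusted p was 0.871. Col1a1 had an interaction of -1.18 ± 0.84 (95% interval -3.01 to 0.66, adjusted p = 0.875), Col1a2 one of -0.99732 ± 0.75, and Col4a1 and Col4a2 of 0.00 and -0.01. The value was negative in 33 of 42 collagen genes (78.6%), against 51.8% of all genes. It was negative in 11 of 11 fibrillar genes, with a fibrillar median of -0.36. That median was -0.05 without old knock-out array 1, -0.19 without young knock-out array 3 and 0.14 without both, an alternative chosen after the data were seen. The Col1a1 interaction was -0.54, -0.74 and -0.10 in these settings.

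Genes that make, bind and break down collagen were counted from lists drawn up by function. Their age counts stand beside the shares over all genes, 1.65% up and 1.97% down in wild-type and 4.85% up and 5.41% down in knock-out mice, with 16.6% and 24.9% at an unadjusted p under 0.05, and a single call on lists this short is no result about the list. Of the maturation enzymes and chaperones, 28 of 32 listed were measured, and 1 rose and 1 fell with age in wild-type and 1 rose and 4 fell in knock-out mice (medians -0.22 and -0.29). Adamts3, a protease that removes the amino end of procollagen, was under the floor on average yet differed by -0.93 ± 0.13 and -1.39 ± 0.13 (adjusted p = 0.00301 and 0.000155). P4hb, the shared subunit of prolyl 4-hydroxylase and a protein disulfide isomerase, rose by 0.53 ± 0.07 and 0.56 ± 0.07 (adjusted p = 0.00278 and 0.000951). Pcolce2, an enhancer of procollagen trimming, and Plod1, a lysyl hydroxylase, fell in knock-out mice (-1.46 ± 0.28 and -0.60 ± 0.14, adjusted p = 0.00790 and 0.0199) and did not pass in wild-type muscle (-1.07 ± 0.28 and -0.42 ± 0.14). The fifth call was Serpinh1, the collagen chaperone HSP47 (-1.04 ± 0.30, adjusted p = 0.0459), named after its value was seen.

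Proteins that lie on or beside collagen fibrils were counted next. Of 20 measured of 21, 5 fell in wild-type and 7 in knock-out mice and 0 rose (medians -0.45 and -0.61). Kera, keratocan, read 9.90, 9.31 and 9.48 in young and 6.36, 5.71 and 5.74 in old wild-type muscle, with 9.35, 9.67 and 10.91 in young and 5.29, 6.83 and 5.78 in old knock-out muscle, with all old arrays below all young ones. It fell by 3.63 ± 0.41 in wild-type and 4.01 ± 0.41 in knock-out mice on the log2 scale (adjusted p = 0.00106 and 0.000342). Fmod, fibromodulin, differed by -2.19 ± 0.42 and -3.39 ± 0.42 (adjusted p = 0.0169 and 0.0008), and Sparc, a collagen chaperone of the matrix, by -1.51 ± 0.24 and -1.61 ± 0.24 (adjusted p = 0.00574 and 0.00205). Comp, a pentameric tendon and cartilage protein, fell in knock-out mice (-2.77 ± 0.40, adjusted p = 0.00174) and missed in wild-type muscle (-1.54 ± 0.40, adjusted p = 0.0551).

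Among non-collagen basement membrane genes, 15 of 16 were measured, and 1 fell in wild-type and 2 in knock-out mice (median -0.11 in both). Pxdn, the peroxidase that cross-links type IV collagen, fell in both genotypes (-0.88 ± 0.15 and -0.67 ± 0.15, adjusted p = 0.00902 and 0.0172), and Lamc1, a laminin chain, in knock-out mice (-0.84 ± 0.18, adjusted p = 0.0124). Of the genes of collagen breakdown and its inhibitors, 15 of 16 measured, 0 passed in wild-type muscle, with 1 at an unadjusted p under 0.05, and 1 fell in knock-out mice. That was Timp2, an inhibitor of matrix proteases (-1.06 ± 0.23, adjusted p = 0.0149), and Mmp2, the gelatinase it binds, differed by -0.76 ± 0.25 there and did not pass (adjusted p = 0.0760). Of 8 collagen receptors measured of 9, 0 passed in either genotype, with 2 and 4 at an unadjusted p under 0.05, where the shares over all genes were 16.6% and 24.9%.

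Of the growth factor genes that act on matrix cells, 14 of 16 were measured. In wild-type muscle 2 fell, and in knock-out mice 4 fell and 1 rose. Pdgfa and Pdgfb, ligands of fibroblasts and pericytes, fell in both genotypes (-0.66 ± 0.11 and -0.61 ± 0.14 in wild-type, -0.84 ± 0.11 and -1.16 ± 0.14 in knock-out mice, adjusted p from 0.000625 to 0.0308). Smad3, a mediator of TGF-beta signals, fell in knock-out mice (-0.82 ± 0.12, adjusted p = 0.00176), and Ccn1, a matricellular protein, rose there (1.38 ± 0.27, adjusted p = 0.00922). The fifth was Igf1, which fell (-1.41 ± 0.32, adjusted p = 0.0162) and was named after its value was seen. In the genotype comparisons limma called 0 genes of these lists at either age. At an unadjusted p under 0.05 there were 6 and 4 maturation genes in young and old muscle, 5 and 1 growth factor genes, 2 and 2 breakdown genes, 1 and 0 basement membrane genes, 0 and 1 fibril partners and 0 and 1 receptors, beside 11.3% of all genes in young and 19.3% in old muscle.

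Markers of the cells that make collagen moved with age too, and in a bulk sample fewer cells of a type and less RNA per cell cannot be told apart. Over all genes the shares with age were 1.65% up and 1.97% down in wild-type and 4.85% up and 5.41% down in knock-out mice. At an unadjusted p under 0.05 they were 16.6% and 24.9%. The age counts of this paragraph and the next stand beside these shares, and a single call on a short list is no result about the list. Of 8 tendon cell markers, all measured, 4 fell in wild-type and 6 in knock-out mice (medians -1.86 and -3.01). Their mean level ran from log2 9.20 to 9.42 in young and 7.58 to 7.87 in old wild-type muscle, with 9.30 to 10.4 in young and 6.71 to 7.75 in old knock-out muscle. The highest was young knock-out array 3 and the lowest old knock-out array 1, the arrays that stood out for fibrillar collagens. Tnmd, tenomodulin, a membrane protein of tendon cells, differed by -2.30 ± 0.38 and -3.25 ± 0.38 (adjusted p = 0.00747 and 0.000625), and Chad, chondroadherin, a leucine-rich protein of cartilage and tendon, by -2.23 ± 0.34 and -3.41 ± 0.34 (adjusted p = 0.00473 and 0.000234). Scx, the tendon transcription factor scleraxis, differed by 0.16 ± 0.13 and -0.02 ± 0.13 and did not pass. The tendon list shares Kera, Fmod, Comp and Thbs4 with the list of fibril partners.

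Of 9 genes measured of 10 listed as fibroblast markers, 2 fell in wild-type and 5 in knock-out mice (medians -0.56 in both). They include Tcf4, which is not an established marker of these cells. Their mean ran from 10.1 to 10.4 in young and 9.51 to 9.78 in old wild-type muscle, with 10.1 to 10.7 in young and 9.18 to 9.93 in old knock-out muscle. Pdgfra, the receptor that marks these cells in muscle, differed by -0.17 ± 0.23 and -0.32 ± 0.23, and Lum, lumican, by -0.16 ± 0.42 and -0.29 ± 0.42, neither of which passed. Gsn and Pi16 fell in both genotypes. The fibroblast list shares Dcn and Lum with the fibril partners. Endothelial markers gave 2 of 8 down in both (Cdh5 and Tie1, median -0.26 and -0.28), while the muscle fibre markers, of which 0 of 11 were called, also at an unadjusted p under 0.05, are mostly near the top of the signal range and cannot show a lack of change. Of 8 smooth muscle and pericyte markers, Acta2 and Tagln rose and Pdgfrb fell in wild-type muscle, and Pdgfrb and Rgs5 fell in knock-out mice. Of 9 macrophage markers, Cd68 rose in old knock-out muscle, both against young knock-out (2.87 ± 0.41, adjusted p = 0.00164) and against old wild-type muscle (2.17 ± 0.41, adjusted p = 0.0256). In the comparison with old wild-type muscle 0.473% of all genes passed upward. There 8 of the 9 markers were higher (median 0.74), and 6 had an unadjusted p under 0.05 in limma, beside 19.3% of all genes. In satellite cell markers, Myf5 fell in wild-type and Pax7 in knock-out mice, out of 6. Lymphocyte (7 measured), adipocyte (5) and Schwann cell markers (5) had 0 calls with age in limma, with at most 1 of a list at an unadjusted p under 0.05. The lymphocyte markers averaged log2 7.03 on young wild-type array 1, the array highest in most basement membrane collagens, and 5.94 and 5.88 on its replicates. The adipocyte markers averaged 11.2, 10.6 and 8.48 on the old knock-out arrays 1, 2 and 3. All 5 had a higher mean in old knock-out than in old wild-type muscle (median 1.78), with groups that overlapped. In that comparison 0 passed and 4 had an unadjusted p under 0.05 in limma. The part of these markers, and of the control probe sets that differed with age, in the collagen differences was not tested.

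**Figure D5:**
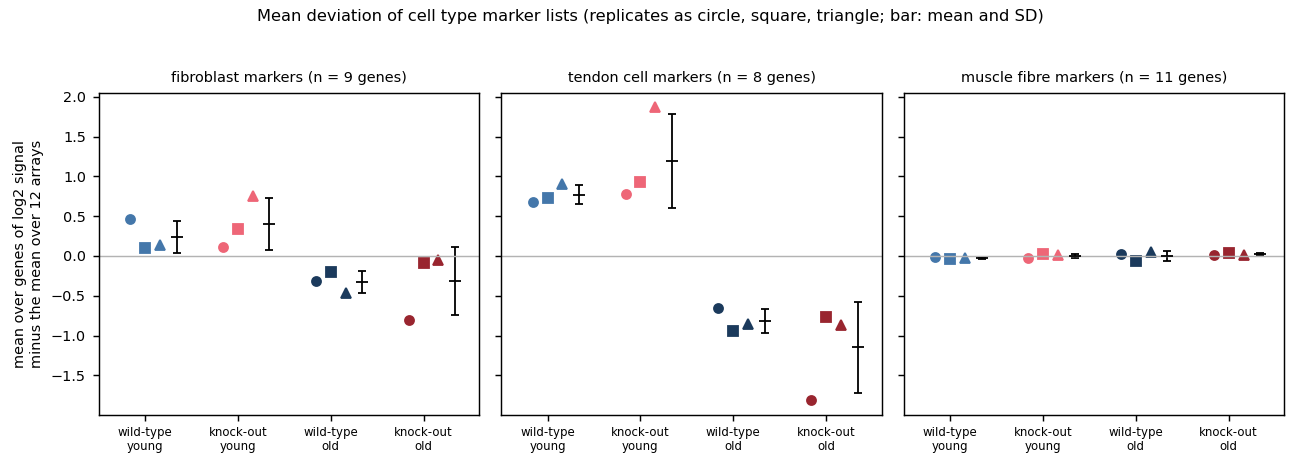
Mean over markers of a cell type of log2 signal minus the mean over 12 arrays (vertical axis), for each array of the 4 groups, with the mean and SD of each group. Tendon cell markers lie between 0.67 and 1.87 on the young and between -1.81 and -0.65 on the old arrays, and muscle fibre markers lie between -0.07 and 0.05, with most of their probe sets near the highest value on the arrays, so that their score could hardly move.

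Several collagen genes lie next to each other in the mouse genome with no other protein-coding gene starting between them (RefSeq, GRCm38.p6). Col4a1 and Col4a2, read in opposite directions from 1 shared promoter region, differed by -1.04 and -0.71 in both genotypes, and of these the Col4a2 difference in wild-type muscle did not pass. Col3a1 and Col5a2 differed by -0.96 and -0.75 in wild-type and -1.58 and -0.79 in knock-out mice, and Col6a2 and Col6a1 by -0.63 and -0.89 and by -1.25 and -1.33, none of which passed. Col9a1 and Col19a1 differed by -0.68 and 0.01 in wild-type muscle, where neither passed, and by -0.90 and -0.42 in knock-out mice, where both fell. Col4a6 and Col4a5 differed by 0.21 and -0.42 in wild-type and by 0.11 and -0.62 in knock-out mice, and Col4a4 and Col4a3 by -0.65 and -0.04 and by -0.47 and -0.34, of which the Col4a4 difference in wild-type muscle passed. No difference between neighbours was tested.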

How the data were processed

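Total RNA of mouse gastrocnemius, extracted with Trizol and made into biotinylated cRNA, was measured on Affymetrix arrays per the labels. The authors deposited log2 signals. The submitters' processing notes name RMA and affy for them, with versions not given in the sources used here, and nothing further was done to scale them. Of 45101 probe sets, 34958 named 1 gene, and the 932 naming several were left out, none of them with a collagen gene. Each of 18194 genes kept its probe set with the highest mean. RefSeq (GRCm38.p6) gave promoters and neighbours, and all 42 symbols matched it.

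A model of 4 group means over the 12 arrays was fitted with limma 3.58.1 (R 4.3.3) by lmFit and eBayes, with 8 residual and 4.15 prior degrees of freedom. Benjamini-Hochberg adjustment ran over all genes, with a threshold of 0.05. The procedure was tested on simulated data. Arrays per group (3) limit the precision. No batch, sex or pairing is labelled, and replicate numbers follow accession order.

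The collagen set, the classes, the gene lists and the tests were chosen with earlier results of these data known. Classes were fibrillar (types I, II, III, V, XI, XXIV, XXVII), basement membrane (IV, XV, XVIII) and other. Every array's value is given for 12 main collagen genes and for each collagen gene that passed in any comparison, and in lists of collagen-related genes up to 4 members with the smallest p in the knock-out age comparison are named. Cell type markers named singly were chosen after their values were seen. Scores are means over genes of log2 minus the mean over 12 arrays. The fit was repeated with all probe sets, with probe sets averaged per gene, on brighter genes, after centring or quantile normalization, with robust trended variances, with array weights, on the compared groups only and at a threshold of 0.10. It was also repeated without each array and without 2 pairs of arrays, 1 pair chosen after the data were seen.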

Additional observations from a re-analysis of the deposited data

How the results depend on the processing

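The number of collagen genes called in the genotype comparisons and in the interaction was 0 in every setting run. With age in wild-type muscle there were 8 calls, 5 with trended and robust variances and 2 to 9 with 1 array left out, fewest without old wild-type array 2. With age in knock-out muscle there were 13 calls, 7 in a fit of only the groups compared, 8 without old knock-out array 1 and young knock-out array 3 together (chosen after the data were seen), and 8 to 12 with 1 array left out, fewest without old knock-out array 2. All other settings stayed within 1.5 times these counts. Col11a1 and Col7a1 passed in both genotypes in all settings in which they were tested (23 and 24), and Col1a1, Col1a2, Col12a1, Col22a1 and Col8a2 passed in knock-out muscle in 24 of 24. In wild-type muscle Col22a1 passed in 23 of 24, Col8a2 in 19, Col1a1 in 18, Col12a1 in 15, Col4a1 in 13 and Col4a4 in 14 of 23. Col11a2 passed in knock-out muscle in 22 of 23, Col4a1 in 18 of 24, Col9a1 in 14, Col2a1 in 12 of 23, Col4a2 in 11 and Col19a1 in 10 of 24. No call turned its direction in these settings. No paired analysis was possible because the labels give no replicate numbers that link arrays across groups. Signals near background limit what the dim genes can show, and the number of arrays limits all of them.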

Other observations

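Col17a1, a transmembrane collagen of epithelial attachment, read under log2 4.36 on 11 of the 12 arrays and 5.93 on old wild-type array 3. The wild-type age difference of 0.77 did not pass (adjusted p = 0.274). Col25a1, a transmembrane collagen of muscle and motor nerve, had age differences of 0.04 and -0.04 on its brighter probe set in wild-type and knock-out mice, which did not pass. Its dimmer probe set, of mean 4.72, read 0.62 higher in old than in young knock-out muscle in the fit of all probe sets (limma, adjusted p = 0.0242) and 0.07 higher in old wild-type muscle. Both were chosen after their values were seen.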
